A study of Mus musculus with 6 samples.

Results

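The genes examined here were 10 genes of microbial sensing in mouse macrophages: the Toll-like receptor genes Tlr1, Tlr2, Tlr4, Tlr6, Tlr7, Tlr8, Tlr9 and Tlr13, the co-receptor gene Cd14 and the adaptor gene Myd88. They were chosen by gene symbol, with earlier results of these data known. All 10 were found among the 16111 genes with an identifier and among the 11408 genes with enough reads to be tested. The cells were fetal liver macrophages of the strain C57BL/6 RCC, taken from fetuses at stage E13.5 and kept for 5 weeks in culture with 2% GM-CSF, a growth factor for macrophages and granulocytes, before the non-adherent cells were harvested. Of the 6 RNA-seq libraries, 3 came from wild-type mice and 3 from mice deficient in Ahrr, numbered as mice 1 to 3 within each genotype. Ahrr encodes the aryl hydrocarbon receptor repressor, which opposes the ligand-activated transcription factor AhR. The labels do not describe the Ahrr allele, give no stimulus and do not state the sex of the fetuses.

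Toll-like receptors are membrane proteins whose outer leucine-rich repeats bind molecules of microbes and whose inner TIR domain recruits adaptor proteins. TLR4, with the co-receptor CD14 and the protein MD-2, senses bacterial lipopolysaccharide at the cell surface, and TLR2 pairs with TLR1 or TLR6 to sense bacterial lipopeptides. TLR7, TLR8, TLR9 and TLR13 sit in endosomes and sense nucleic acids, and all of the receptors examined use the adaptor MyD88 to activate NF-kB and interferon regulatory factors.

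Library totals ran from 3556106 to 41668336 counts, and levels are given as counts per 1000000 counts of the library (CPM). Ahrr itself had 4.60, 4.29 and 5.32 CPM across wild-type and 2.25, 2.57 and 1.21 CPM across Ahrr-deficient replicates 1, 2 and 3. The log2 fold change was -1.21 (SE 0.26, adjusted p 0.0151 by edgeR), so reads assigned to Ahrr were fewer but present in the Ahrr-deficient libraries. This call was lost without wild-type replicate 1 (-1.29, adjusted p 0.0631) or 3 (-1.18, adjusted p 0.0502). Thinning the libraries to the smallest total ended it too (-1.35), and over 16 alternatives the adjusted p ranged from 2.18e-04 to 0.102. Ahrr-deficient replicate 1, the shallowest library, stood apart from the other libraries on the second principal component (20.4% of the variance), and a ribosomal RNA gene took 5.28% of the counts of wild-type replicate 2. The macrophage label was met by 10 of 10 marker genes, with a summed level of 22591 to 28335 CPM across wild-type and 17644 to 24596 CPM across Ahrr-deficient libraries. Among them Itgax and Mrc1 were higher (log2 fold change 1.70 and 0.59, edgeR adjusted p 6.96e-04 and 0.00766) and Csf1r was lower (-0.65, adjusted p 0.0304) in Ahrr-deficient cells. Adgre1, Cd68, Mertk, Fcgr1, Lyz2, Itgam and Marco did not pass, and their log2 fold changes were all negative, from -0.51 to -0.11. Cd68 and Marco were lower in each Ahrr-deficient library than in any wild-type library. The summed level was mostly Lyz2, at 17419 to 22740 CPM across wild-type and 12440 to 19165 CPM across Ahrr-deficient libraries.

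Of the 10 genes, 5 had an adjusted p under 0.05 in the edgeR comparison of the genotypes, against 19.6% of all tested genes. The genes were chosen with earlier results of these data known, so comparing them with all tested genes is a description and not a test. Tlr4, Tlr1 and Myd88 were higher in Ahrr-deficient cells, as were 9.62% of tested genes, and Cd14 and Tlr9 were lower, as were 9.95%. Tlr2, Tlr6, Tlr7, Tlr8 and Tlr13 did not pass the threshold. The median absolute log2 fold change was 0.48 over the 10 genes and 0.22 over all tested genes. Levels of the genotypes did not overlap for 6 of the 10 genes, namely the called genes other than Myd88 plus Tlr2 and Tlr6, against 36.6% of tested genes (4 with higher Ahrr-deficient values, against 23.9%, and 2 with lower, against 12.8%). Without Ahrr-deficient replicate 1, 6 of the 10 genes passed (3857 of all 11837 tested), and without wild-type replicate 2, 4 passed (965 of all 11839). The number was 3 without Ahrr-deficient replicate 2 (948 of all 11412) or wild-type replicate 3 (1107 of all 11836). It was 4 without Ahrr-deficient replicate 3 (1175 of all 11407). Without wild-type replicate 1, the fit with the fewest calls over all genes (694 of all 11427), it was also 4. In bulk RNA, fewer cells of a type and less RNA per cell cannot be told apart.

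**Figure D1:**
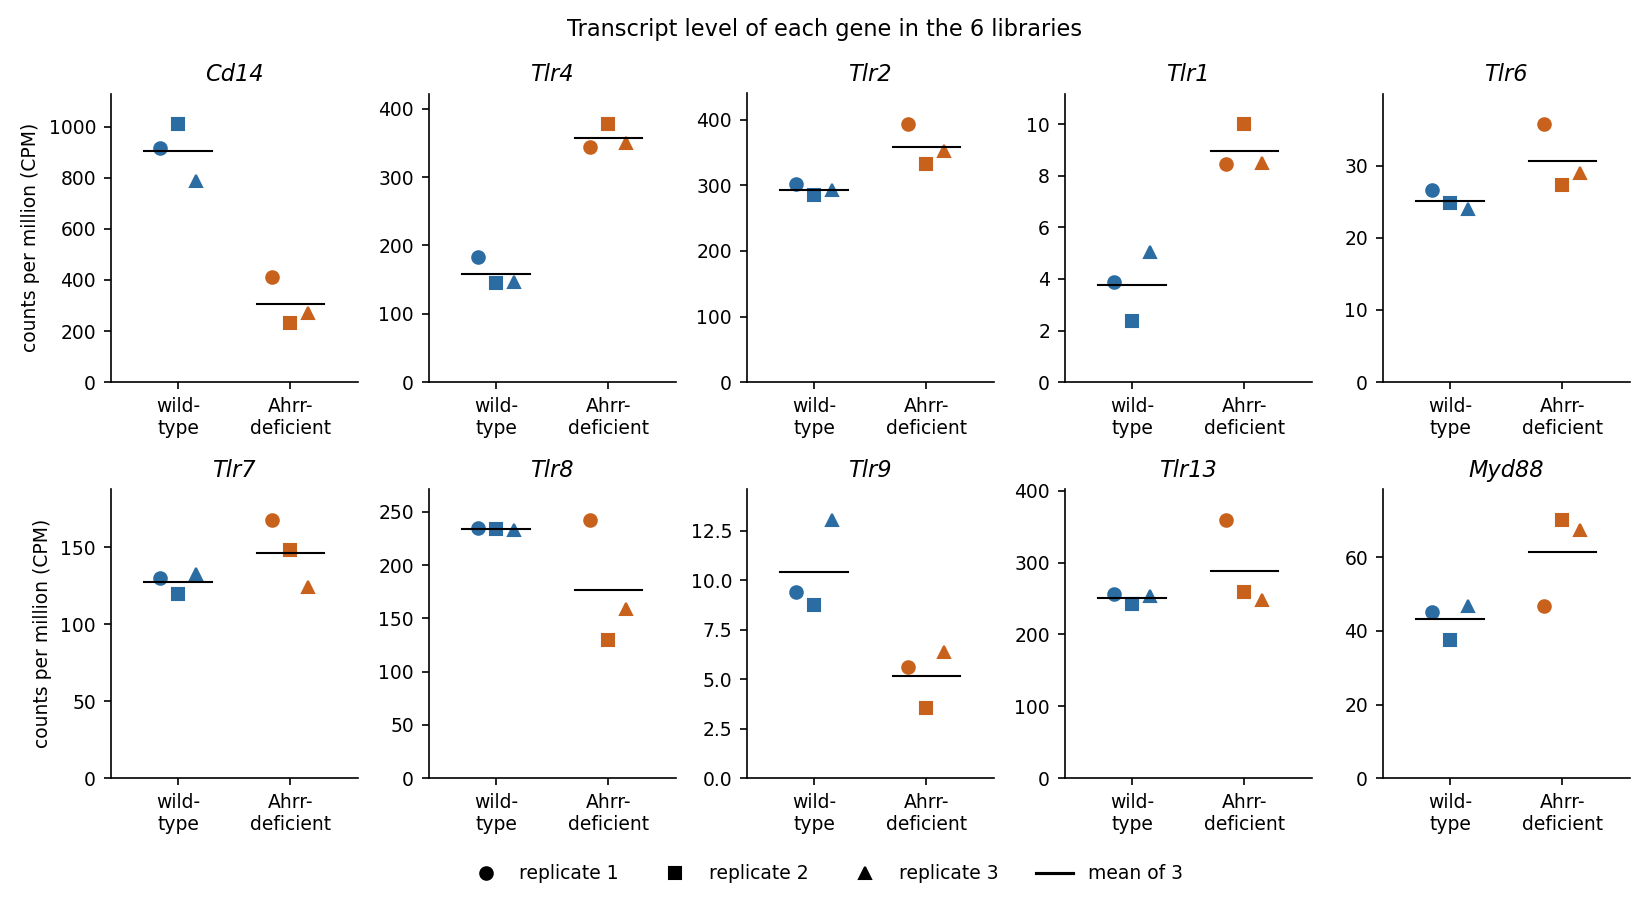
Level of each of the 10 genes in CPM (vertical axes from 0) in 3 wild-type (blue) and 3 Ahrr-deficient (orange) libraries, with marker shape for the replicate and a bar for the mean. Cd14 and Tlr9 sit lower and Tlr4 and Tlr1 higher in every Ahrr-deficient library, while Tlr8 in Ahrr-deficient replicate 1 sits at the wild-type level.

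The lipopolysaccharide receptor genes moved in opposite directions. Cd14 (ENSMUSG00000051439.6, chromosome 18, 36725067 to 36726798, minus strand, GRCm38), a single-exon gene in this annotation, encodes the protein that hands lipopolysaccharide to TLR4. It had 919, 1009 and 786 CPM across wild-type and 411, 231 and 271 CPM across Ahrr-deficient replicates 1, 2 and 3. The lowest wild-type library lay well above the highest Ahrr-deficient one, which was replicate 1. The mean fell from 905 ± 112 to 304 ± 94.2 CPM (SD, n = 3). The fitted change, after TMM scaling, was a 3.15-fold decrease, a log2 fold change of -1.66 (SE 0.23, adjusted p 0.00329 by edgeR). By mean CPM it ranked 103 among tested genes in wild-type and 480 in Ahrr-deficient cells. Each of the 17 alternative analyses kept the call, with log2 fold changes between -1.95 and -1.49.

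Tlr4 (ENSMUSG00000039005.13, chromosome 4, 66827584 to 66930284, plus strand) encodes the receptor itself. Its level was 183, 145 and 147 CPM in the wild-type libraries and 344, 377 and 349 CPM in the Ahrr-deficient libraries. The groups were far apart, with little spread within the Ahrr-deficient group. The mean rose from 158 ± 21.7 to 357 ± 17.7 CPM (SD, n = 3). The fitted rise was 2.14-fold, a log2 fold change of 1.10 (SE 0.11, adjusted p 0.00101 by edgeR). This call held in all 17 alternatives, between 0.94 and 1.19 on the log2 scale. Ly96, the gene of MD-2, had 6.82 to 9.12 CPM across wild-type and 5.66 to 8.44 CPM across Ahrr-deficient libraries, with a log2 fold change of -0.27 (95% interval -0.68 to 0.14, adjusted p 0.316 by edgeR).

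Tlr4 and Cd14 were set against each other within each library, per kilobase of merged exons, so that library scaling cancels. The Tlr4/Cd14 ratio was 0.0623, 0.0447 and 0.0583 in wild-type and 0.261, 0.508 and 0.402 in Ahrr-deficient replicates 1, 2 and 3. It was higher in each Ahrr-deficient library than in any wild-type library, by 6.90-fold in geometric mean (log2 difference 2.79). The exact two-sided permutation p was 0.1, the smallest that 3 against 3 libraries allow, and it stayed 0.1 after adjustment over the 3 ratios computed. The ratios were chosen after the values were seen. Groups without overlap always give the smallest p, so the p-values add nothing to the ratios themselves.

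**Figure D2:**
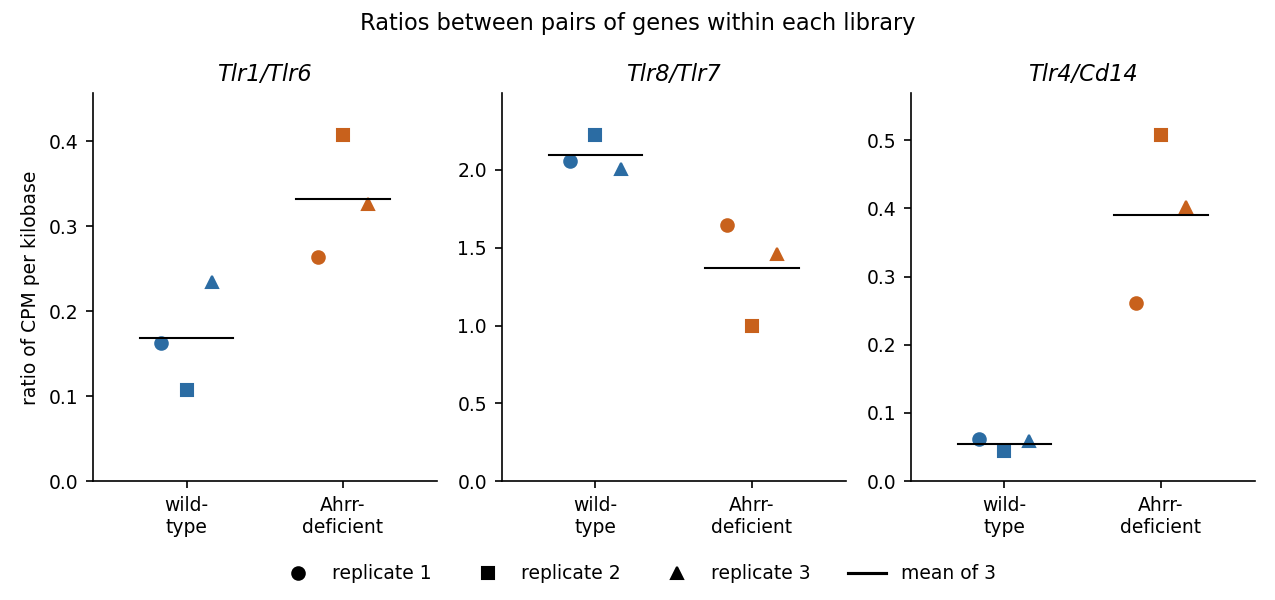
Ratios of CPM per kilobase between Tlr1 and Tlr6, Tlr8 and Tlr7, and Tlr4 and Cd14 in each of 3 wild-type (blue) and 3 Ahrr-deficient (orange) libraries, on linear axes from 0, with bars for group means. No ratio overlaps between the genotypes, and the ratios were chosen after the values were seen. Tlr4/Cd14 is at most 0.0623 in wild-type and at least 0.261 in Ahrr-deficient libraries.

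The lipopeptide receptors are TLR2 and its partners. Tlr2 (ENSMUSG00000027995.10, chromosome 3, 83836272 to 83841767, minus strand), the common partner, had 302, 285 and 294 CPM across wild-type and 393, 332 and 352 CPM across Ahrr-deficient libraries. All 3 Ahrr-deficient values lay above the wild-type ones, but the difference did not pass the threshold after scaling and adjustment. The log2 fold change was 0.21 (95% interval -0.02 to 0.44, adjusted p 0.166 by edgeR), and it passed in 0 of 17 alternatives.

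Tlr1 (ENSMUSG00000044827.10, chromosome 5, 64924679 to 64933563, minus strand) was among the least abundant of the genes, with 15 to 416 counts in a library. It had 3.87, 2.38 and 5.04 CPM across wild-type and 8.44, 9.98 and 8.49 CPM across Ahrr-deficient replicates 1, 2 and 3. The groups did not overlap, and the wild-type values spread more, with a coefficient of variation of 35.4% against 9.78%. The mean rose from 3.77 ± 1.33 to 8.97 ± 0.877 CPM (SD, n = 3), and the fitted rise was 2.29-fold, a log2 fold change of 1.20 (SE 0.21, adjusted p 0.00658 by edgeR). It passed in 17 of 17 alternatives, at adjusted p from 2.80e-06 to 0.0464.

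Tlr6 (ENSMUSG00000051498.6, chromosome 5, 64952031 to 64960097, minus strand) is the neighbour of Tlr1, with 18467 bases between them. It had 26.6, 24.8 and 23.96 CPM across wild-type and 35.7, 27.3 and 29.0 CPM across Ahrr-deficient libraries. The Ahrr-deficient values were higher by a small margin, with a log2 fold change of 0.17 (95% interval -0.12 to 0.46, adjusted p 0.364 by edgeR). The Tlr1/Tlr6 ratio per kilobase was 0.162, 0.107 and 0.235 in wild-type and 0.263, 0.407 and 0.326 in Ahrr-deficient libraries. It rose from 0.168 ± 0.0639 to 0.332 ± 0.0722 (SD, n = 3), a log2 difference of 1.03 with an exact two-sided permutation p of 0.1, the smallest possible. This ratio, too, was chosen after the values were seen. The genes are close paralogues. Of the distinct 75-base stretches of their annotated transcripts, the read length used, 340 were identical between the pair, which is 10.3% of those of Tlr1 and 9.25% of those of Tlr6. Reads from these stretches cannot be assigned to one of the pair, and how such reads were counted is not given in the sources used here, so the levels of both are uncertain.

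The sequences before their start sites are shown for this neighbouring pair, which differed in change. They are also shown for the other called genes with a window in the part of the RefSeq promoter table searched (build GRCm38.p6). Each run is the 250 bases before the start, 5′ to 3′ on the gene's strand, and capitals mark matches to the motifs searched below. For Tlr1 and Tlr6 only the window with a motif match is shown, and the other window of each gene had no match. The Tlr1 window shown is chr5:64933559-64933808 and that of Tlr6 is chr5:64960049-64960298, both on the minus strand. For Tlr9 it is chr9:106222348-106222597 on the plus strand and for Myd88 chr9:119340019-119340268 on the minus strand.
Tlr1: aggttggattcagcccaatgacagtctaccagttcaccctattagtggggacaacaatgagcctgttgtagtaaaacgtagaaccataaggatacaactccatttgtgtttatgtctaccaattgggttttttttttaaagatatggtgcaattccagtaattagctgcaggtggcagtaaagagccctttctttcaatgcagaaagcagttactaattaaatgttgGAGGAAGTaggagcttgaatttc
Tlr6: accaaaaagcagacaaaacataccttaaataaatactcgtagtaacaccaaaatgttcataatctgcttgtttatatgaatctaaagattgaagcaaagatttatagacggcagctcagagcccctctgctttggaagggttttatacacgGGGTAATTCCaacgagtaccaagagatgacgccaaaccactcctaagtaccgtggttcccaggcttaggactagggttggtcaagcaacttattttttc
Tlr9: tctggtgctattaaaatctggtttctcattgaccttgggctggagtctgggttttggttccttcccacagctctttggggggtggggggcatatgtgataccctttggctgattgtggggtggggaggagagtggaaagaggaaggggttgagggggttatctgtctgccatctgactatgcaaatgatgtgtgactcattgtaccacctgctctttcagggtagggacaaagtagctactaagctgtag
Myd88: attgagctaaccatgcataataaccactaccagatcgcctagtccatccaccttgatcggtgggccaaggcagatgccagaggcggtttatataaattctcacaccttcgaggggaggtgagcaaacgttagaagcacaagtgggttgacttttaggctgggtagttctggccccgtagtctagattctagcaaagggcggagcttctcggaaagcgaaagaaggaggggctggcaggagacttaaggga

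Windows of 300 bases, from 250 before to 50 after a start, were matched for 7 of the 10 genes (9 windows, with 2 starts each for Tlr1 and Tlr6). Tlr4 and Tlr7 were not matched. Windows on chromosome 18, which holds Cd14, were left out of the search, so Cd14 could not be matched. Both strands were searched. The core of the AhR response element, GCGTG, was in 0 of the 9 windows and in 32.4% of the 32851 windows searched. The PU.1 form GAGGAAGT was in 2 of 9, against 3.20% of all windows. In Tlr1 it began 23 bases before the start, as the capitals show, and in Tlr9 it lay on the other strand 10 bases after the start. A strict kappaB form, GGG and TTTCC with any 2 bases between them, was in 0 of 9 windows (1.63% of all), and a looser form, GGG and TCC with any 4 bases between them, was in 2 of 9 (19.2% of all), namely Tlr2 and the Tlr6 window shown. A match is a run of letters and not a measured binding site.

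The endosomal receptors differed among themselves. Tlr7 (ENSMUSG00000044583.13, chromosome X, 167304929 to 167330558, minus strand), a sensor of single-stranded RNA, had 130.0, 119.5 and 132 CPM across wild-type and 167, 148 and 124 CPM across Ahrr-deficient libraries. The groups overlapped, and the log2 fold change was 0.12 (95% interval -0.13 to 0.37, adjusted p 0.461 by edgeR). With offsets for GC content the value was -0.02, so no direction is given for Tlr7.

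Tlr8 (ENSMUSG00000040522.5, chromosome X, 167242696 to 167264329, minus strand), which lies 40599 bases from Tlr7, also encodes an endosomal receptor. Its wild-type values were the tightest of the 10 genes, at 235, 233 and 233 CPM, a coefficient of variation of 0.488%. In the Ahrr-deficient libraries it had 242, 129.9 and 159 CPM, so that replicate 1 sat at the wild-type level and the other two far below it. Across all libraries the log2 fold change was -0.49 (95% interval -0.95 to -0.03, unadjusted p 0.0390, edgeR adjusted p 0.118). Without Ahrr-deficient replicate 1 it was -0.79 (edgeR adjusted p 0.00106), and with offsets for GC content -0.65 (adjusted p 0.0336). Over 17 alternatives the adjusted p ran from 2.00e-04 to 0.295, with 4 past the threshold. The Tlr8/Tlr7 ratio per kilobase was 2.06, 2.22 and 2.00 in wild-type and 1.65, 0.9999 and 1.46 in Ahrr-deficient libraries, without overlap (log2 difference -0.64, exact two-sided permutation p 0.1, the smallest possible). Its choice was also made with the values known.

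Tlr9 (ENSMUSG00000045322.10, chromosome 9, 106222598 to 106226883, plus strand), the receptor gene for unmethylated CpG DNA, was a low-level transcript with 20 to 207 counts in a library. It had 9.43, 8.73 and 13.03 CPM across wild-type and 5.62, 3.55 and 6.37 CPM across Ahrr-deficient libraries. Every Ahrr-deficient value was below every wild-type value. The mean fell from 10.4 ± 2.31 to 5.18 ± 1.46 CPM (SD, n = 3), and the fitted fall was 2.27-fold, a log2 fold change of -1.18 (SE 0.25, adjusted p 0.0146 by edgeR). The call was lost without Ahrr-deficient replicate 2 (-0.81, adjusted p 0.0537) and without wild-type replicate 3 (-1.04, adjusted p 0.0512), and held in the other 15 of 17 alternatives, whose adjusted p went down to 2.49e-06.

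Tlr13 (ENSMUSG00000033777.3, chromosome X, 106143204 to 106160493, plus strand), the gene of a receptor for bacterial ribosomal RNA, had 256, 243 and 254 CPM across wild-type and 359, 259 and 248 CPM across Ahrr-deficient libraries. One library, Ahrr-deficient replicate 1, stood above all others and the rest overlapped. The log2 fold change was 0.13 (95% interval -0.20 to 0.45, adjusted p 0.571 by edgeR) and -0.08 without that library, so no direction is given. Within the Ahrr-deficient group, replicate 1 also had the highest level of Tlr2, Tlr6, Tlr7, Tlr8 and Cd14 and the lowest of Tlr1, Tlr4 and Myd88. For Tlr1 (8.44 and 8.49 CPM) and Tlr4 (344 and 349 CPM) replicates 1 and 3 were nearly equal.

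Myd88 (ENSMUSG00000032508.8, chromosome 9, 119335934 to 119341411, minus strand) encodes the adaptor that links the receptors to the IRAK kinases. It had 45.1, 37.5 and 46.8 CPM across wild-type and 46.7, 69.98 and 67.5 CPM across Ahrr-deficient libraries. Replicates 2 and 3 of the Ahrr-deficient group lay above every wild-type library, and replicate 1 lay just under the highest wild-type value. The mean went from 43.1 ± 4.98 to 61.4 ± 12.8 CPM (SD, n = 3). The fitted rise was 1.38-fold, a log2 fold change of 0.46 (SE 0.14, adjusted p 0.0435 by edgeR). This call was narrow. It held in 7 of 17 alternatives, with adjusted p from 0.00113 to 0.155, and was lost when any library but Ahrr-deficient replicate 1 (0.58, adjusted p 0.00147) was left out (log2 fold change 0.47, 0.42 and 0.47 without wild-type replicates 1, 2 and 3, and 0.36 and 0.39 without Ahrr-deficient replicates 2 and 3; adjusted p 0.104 to 0.155). Its exons share 290 bases with Acaa1a on the opposite strand, and strand use in counting is not given, so reads there cannot be told apart. Acaa1a had 106 to 128 CPM across wild-type and 88.3 to 117 CPM across Ahrr-deficient libraries, a log2 fold change of -0.24 (SE 0.10, adjusted p 0.122 by edgeR).

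**Figure D3:**
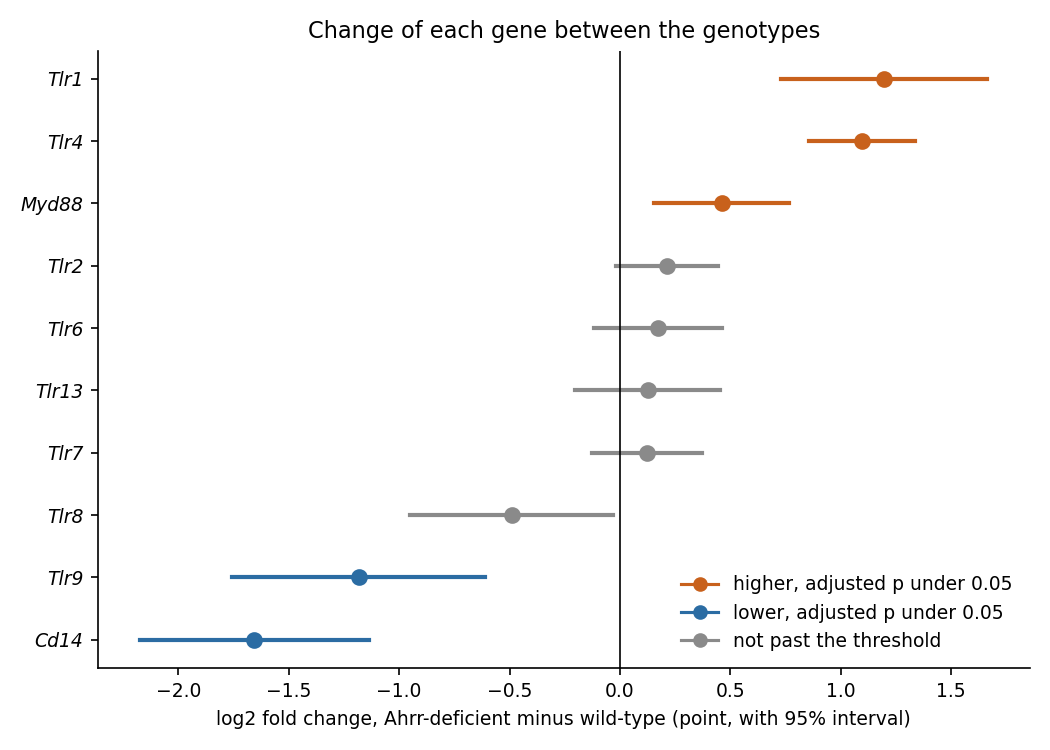
Log2 fold change of each gene, Ahrr-deficient minus wild-type, from the edgeR fit of 6 libraries, with 95% intervals as lines and colour for the call. Tlr1, Tlr4 and Myd88 lie above 0 and Cd14 and Tlr9 below it past the threshold, and the unadjusted interval of Tlr8 stops just short of 0 at -0.03.

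Levels were compared between genes per kilobase of merged exons. In wild-type cells Cd14 was highest, at 522 ± 64.6 CPM per kilobase (SD, n = 3), followed by Tlr2 at 97.4 ± 2.80, Tlr8 at 65.2 ± 0.318, Tlr13 at 58.2 ± 1.59, Tlr7 at 31.2 ± 1.67 and Tlr4 at 28.5 ± 3.91. Myd88 came next at 16.7 ± 1.93, then Tlr6 at 6.74 ± 0.366, Tlr9 at 2.99 ± 0.663 and Tlr1 at 1.13 ± 0.399. Only the neighbours Tlr7 and Tlr4 overlapped in this wild-type order. In Ahrr-deficient cells Cd14 remained first at 176 ± 54.4 CPM per kilobase and Tlr2 second at 119 ± 10.3. Tlr13 (67.1 ± 14.1), Tlr4 (64.2 ± 3.19), Tlr8 (49.3 ± 16.2) and Tlr7 (35.9 ± 5.32) followed, each overlapping its neighbour in the order. Myd88 and Tlr6 kept the seventh and eighth places, and Tlr1 at 2.68 ± 0.262 was above Tlr9 at 1.49 ± 0.420, the reverse of wild-type, with no overlap between the pair in either genotype.

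**Figure D4:**
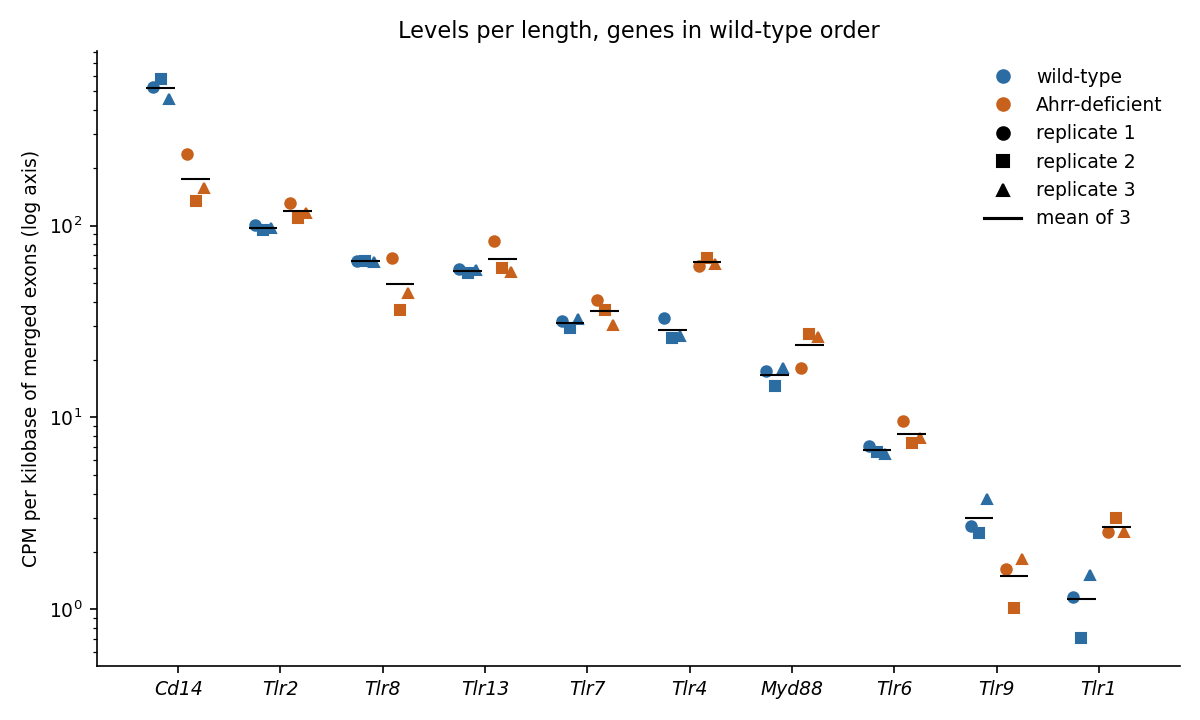
CPM per kilobase of merged exons on a log axis for the 10 genes in wild-type order, with wild-type libraries in blue, Ahrr-deficient libraries in orange, marker shape for the replicate and bars for means. Tlr4 moves from 28.5 to 64.2 CPM per kilobase, overlapping Tlr13, and Tlr1 and Tlr9 change places at the low end.

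The 8 receptor genes together had 301, 281 and 292 CPM per kilobase in wild-type and 398, 322 and 324 in Ahrr-deficient libraries, with the highest sum in Ahrr-deficient replicate 1. Within that sum Tlr4 took 9.77% ± 1.05 in wild-type and 18.7% ± 2.83 in Ahrr-deficient cells (SD, n = 3). Tlr8 took 22.4% ± 0.698 and 13.96% ± 2.87, and its shares in the Ahrr-deficient libraries were 16.96%, 11.2% and 13.7%, all below the wild-type shares of 21.8% to 23.1%. The share of Tlr2 was 33.4% ± 0.173 and 34.3% ± 1.63, and that of Tlr13 19.99% ± 0.241 and 19.1% ± 1.63. Shares within a sum are tied to each other, and no test was made of them.

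Outside the 10 genes, 71 genes of the pathway were listed in 8 groups, with earlier results of these data known. Of these, 65 were identified and 60 tested. In Ahrr-deficient cells 5 of these were higher, 10 were lower and 45 did not pass, which is 25.0% called against 19.6% of all tested genes. The median log2 fold change was -0.05 over the 60 genes and 0.0076 over all tested genes. Leaving out 1 library moved the count of higher genes to 2 without wild-type replicate 1, wild-type replicate 2 or Ahrr-deficient replicate 2 and to 8 without Ahrr-deficient replicate 1. Over all tested genes these fits had 327, 440, 468 and 1889 higher genes. The count of lower genes became 5 without wild-type replicate 1 (367 over all tested genes) and 6 without Ahrr-deficient replicate 3 (600).

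**Figure D5:**
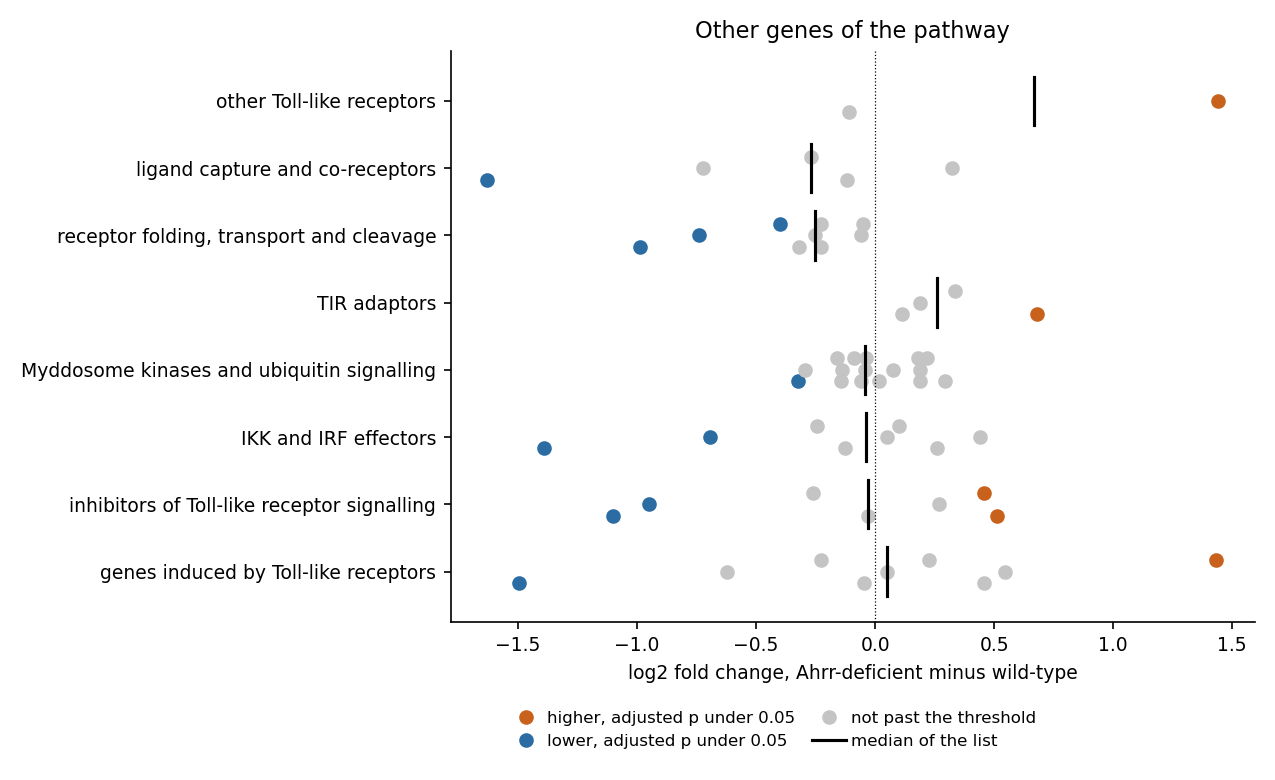
Log2 fold change, Ahrr-deficient minus wild-type, of the 60 tested genes of the listed groups, 1 point per gene, coloured by the call, with a bar at each group's median (points are spread vertically only to be seen). Called genes lie on both sides of 0, 5 above it and 10 below it.

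Among the other Toll-like receptors, Tlr3 and Tlr11 were tested. Tlr11, a receptor gene for protozoan profilin and bacterial flagellin, had 1.41, 0.794 and 2.10 CPM across wild-type and 3.37, 3.84 and 4.96 CPM across Ahrr-deficient libraries. It was higher in each Ahrr-deficient library (log2 fold change 1.44, SE 0.28, adjusted p 0.0102 by edgeR), on 5 to 160 counts, and was not called without wild-type replicate 1 (1.39, adjusted p 0.0762; range over alternatives 5.48e-05 to 0.0762). Tlr3, the sensor of double-stranded RNA, signals through TRIF and had 9.999 to 10.6 CPM across wild-type and 9.40 to 13.2 CPM across Ahrr-deficient libraries (log2 fold change -0.11, edgeR adjusted p 0.657). In the group of ligand capture and co-receptors, 1 of 5 tested genes was lower, against 9.95% of all tested genes, and the others did not pass. This was Lbp, the lipopolysaccharide-binding protein gene, at 2 to 29 counts in a library (log2 fold change -1.63, SE 0.31, adjusted p 0.00969 by edgeR). It was not called without Ahrr-deficient replicate 2 (-1.32, adjusted p 0.0993) or wild-type replicate 1 (-1.76, adjusted p 0.0513). The call was also lost with GC offsets and the replicate block (-1.59, edgeR adjusted p 0.0505), over a range of 0.00503 to 0.0993 in its alternatives. Tlr11 and Lbp are named after their values were seen.

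Receptor folding, transport and cleavage genes included 3 lower and 0 higher genes of 9 tested, against 9.95% of all tested genes called lower, with a median log2 fold change of -0.25. The count of lower genes was 1 without wild-type replicate 1 or 2 or Ahrr-deficient replicate 3, where 367, 525 and 600 of all tested genes were lower. Unc93b1, the chaperone that carries endosomal receptors from the endoplasmic reticulum, went from 942 ± 96.2 to 751 ± 75.6 CPM (SD, n = 3), with a log2 fold change of -0.40 (SE 0.12, adjusted p 0.0423 by edgeR). Its call was lost when any library but Ahrr-deficient replicate 1 was left out, and with GC offsets (-0.24, adjusted p 0.162). The replicate block (edgeR adjusted p 0.0633), that block with GC offsets (0.191) and thinning to the smallest total (0.0789) ended it too. Over 17 alternatives the adjusted p ran from 0.00417 to 0.191. Lgmn, a lysosomal endopeptidase that cleaves endosomal receptors, had 309, 330.1 and 283 CPM across wild-type and 191, 149.6 and 152 CPM across Ahrr-deficient libraries. The groups did not overlap, and Lgmn fell by 0.99 on the log2 scale (SE 0.14, adjusted p 0.00349 by edgeR), with the call held in 17 of 17 alternatives. Ctsb, the cathepsin B gene, fell from 8823 ± 446 to 5572 ± 804 CPM (SD, n = 3; log2 fold change -0.74, SE 0.15, adjusted p 0.0103 by edgeR). It was not called without wild-type replicate 1 or 2 (-0.73 and -0.68) or Ahrr-deficient replicate 3 (-0.69), with adjusted p up to 0.0668 and down to 1.74e-06 over 17 alternatives.

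The TIR adaptors had 1 higher gene of 4 tested, against 9.62% of all tested genes. Pik3ap1, which encodes the adaptor BCAP that links receptors to PI3-kinase, had 425, 310.1 and 405 CPM across wild-type and 504, 719 and 694 CPM across Ahrr-deficient libraries (log2 fold change 0.68, SE 0.15, adjusted p 0.0151 by edgeR). It was not called without wild-type replicate 2 (0.60) or Ahrr-deficient replicate 2 (0.59) or 3 (0.61), with adjusted p from 3.79e-06 to 0.0591 over its 17 alternatives. Of 16 tested genes of the Myddosome kinases and ubiquitin signalling, 15 did not pass, among them Irak1, Irak2, Irak4 and Traf6. Over all tested genes 19.6% were called. The called gene was Rnf31, a subunit of the linear ubiquitin ligase, at 35.2 ± 3.20 and 29.7 ± 0.947 CPM (SD, n = 3; log2 fold change -0.33, SE 0.09, adjusted p 0.0342 by edgeR). Its call was lost when any library but Ahrr-deficient replicate 1 was left out, and also with DESeq2 (adjusted p 0.0776), no filter on low counts (0.0857), the replicate block (0.0891) and GC offsets with that block (0.102). Over 17 alternatives the adjusted p ran from 0.0118 to 0.146.

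Of 8 IKK and IRF effectors, 2 were lower and 0 higher, against 9.95% and 9.62% of all tested genes. Irf7, a transcription factor of the type I interferon response, had 12.1, 10.5 and 11.2 CPM across wild-type and 7.59, 4.39 and 3.34 CPM across Ahrr-deficient libraries. All Ahrr-deficient values were lower (log2 fold change -1.39, SE 0.23, adjusted p 0.00631 by edgeR), and the call held in 17 of 17 alternatives. Ikbke, an IKK-related kinase gene, fell from 265 ± 37.9 to 173 ± 35.5 CPM (SD, n = 3; log2 fold change -0.69, SE 0.15, adjusted p 0.0164 by edgeR). It was not called without wild-type replicate 1 (-0.72) or 3 (-0.62) or Ahrr-deficient replicate 3 (-0.70), at adjusted p up to 0.0574 and down to 4.33e-08 over 17 alternatives.

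Of 7 tested inhibitors of Toll-like receptor signalling, 2 were higher and 2 lower, against 9.62% and 9.95% of all tested genes. Tnfaip3, the gene of the ubiquitin-editing enzyme A20, had 49.95, 57.3 and 40.2 CPM across wild-type and 25.6, 30.0 and 24.2 CPM across Ahrr-deficient libraries (log2 fold change -0.95, SE 0.17, adjusted p 0.00716 by edgeR). Cd300a, an inhibitory receptor gene, fell from 593 ± 26.6 to 292 ± 90.7 CPM (SD, n = 3; log2 fold change -1.10, SE 0.20, adjusted p 0.00780 by edgeR). Rnf216, a ubiquitin ligase gene, rose from 72.7 ± 9.52 to 109 ± 7.64 CPM (SD, n = 3; log2 fold change 0.51, SE 0.09, adjusted p 0.00711 by edgeR). These 3 calls held in 17 of 17 alternatives each. Lilrb4a, an inhibitory receptor gene of a family with near-identical copies and so of uncertain counts, rose from 424 ± 39.7 to 614 ± 29.4 CPM (SD, n = 3; log2 fold change 0.46, SE 0.11, adjusted p 0.0203 by edgeR). It was called in 11 of 17 alternatives (adjusted p 6.55e-04 to 0.0914), and not without wild-type replicate 1, 2 or 3 (0.52, 0.47 and 0.38) or Ahrr-deficient replicate 2 (0.45). With GC offsets it was not called either (0.33, adjusted p 0.0504, and 0.0914 with the replicate block).

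Of 9 tested genes that Toll-like receptors induce, 1 was higher, 1 lower and 7 did not pass. Over all tested genes 9.62% were higher and 9.95% lower. Il1b had 242, 288 and 197 CPM across wild-type and 132, 70.6 and 76.5 CPM across Ahrr-deficient libraries, without overlap (log2 fold change -1.50, SE 0.26, adjusted p 0.00658 by edgeR), and the call held in 17 of 17 alternatives. Tnf, at 7 to 216 counts in a library, had 1.73, 1.27 and 0.981 CPM across wild-type and 2.25, 5.18 and 3.34 CPM across Ahrr-deficient libraries (log2 fold change 1.43, SE 0.33, adjusted p 0.0181 by edgeR). The Tnf call was lost without any one of wild-type replicates 1, 2 and 3 (1.74, 1.41 and 1.26) or without Ahrr-deficient replicate 2 (0.98). Limma on the deposited signal (1.26, adjusted p 0.0501) and the replicate block in edgeR (1.31, adjusted p 0.0546) also ended it. The call held in 10 of 16 alternatives, with adjusted p from 5.12e-05 to 0.120.

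By likeness of log2 CPM over the 6 libraries, among 10034 genes averaging at least 50 counts a library, those nearest to Tlr1 were Hibadh, Cyb561 and Il1rl2, with Pearson r of 0.999, 0.999 and 0.997. Those nearest to Cd14 were Sgms2, Fcgr3 and Stn1, with r of 0.999, 0.999 and 0.998. These are descriptions over libraries that fall into the 2 genotypes, and 178 genes for Tlr1 and 387 for Cd14 had r over 0.95.

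Markers of other cells were read beside these results. The 3 identified neutrophil markers of 9 listed summed to 11.6 to 26.2 CPM across wild-type and 2.83 to 9.84 CPM across Ahrr-deficient libraries, mostly Cxcr2, which was lower (log2 fold change -2.25, edgeR adjusted p 0.0158), while S100a9, Ly6g, Mpo, Elane, Ngp and Camp were not among the identified genes. The monocyte marker Ccr2 had 15.7 to 75.8 CPM in wild-type and 45.1 to 101 CPM in Ahrr-deficient libraries, which overlapped (0.82, adjusted p 0.245). The 3 identified dendritic cell markers of 6 summed to 57.6 to 62.1 and 72.0 to 93.2 CPM, mostly Clec9a, which was higher (0.49, adjusted p 0.0256). Zbtb46 went the other way, lower in each Ahrr-deficient library but not called (-0.32, edgeR adjusted p 0.228). Xcr1, at 1 to 7 counts in a library, was not tested, and Flt3, Ccr7 and Siglech were not among the identified genes. Of the 4 megakaryocyte markers Itga2b alone was identified, at 2.7 to 3.01 and 1.21 to 1.97 CPM (-1.10, adjusted p 0.0147). Markers of mast cells and basophils, B cells and progenitors were not among the identified genes, and those of erythroid cells, hepatocytes and T and NK cells summed to at most 0.864 CPM in any library. The part of these cell types in the results above was not tested.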

How the data were processed

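RNA of 6 samples was measured by single-end 75 bp RNA-seq of polyA RNA (100 ng input), per the labels' protocols. The authors deposited raw counts per feature without identifiers (53465 features) and a normalized signal per gene, counts divided by 1 size factor per library, for 16111 identified genes. All of these signal values were whole multiples of 1 read within 0.01 (100%), and the recovered reads matched the raw table once features under 10 counts in all were dropped. Features without an identifier (up to 0.0511% of a library) entered the totals only. The submitters' processing notes name CASAVA 1.8.2, fastp 0.20.0, STAR 2.7.10b, SAMtools 1.16.1, R 4.3.1 and DESeq2 1.40.2 and the build mm10. Annotation and strand use are not given in the sources used here. Coordinates, exon lengths and GC content came from GENCODE M21 (GRCm38), matching 16094 genes.

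Counts were tested with edgeR 4.0.16 (quasi-likelihood, TMM, filterByExpr, genotype as the only term) in R 4.3.3, two-sided, with Benjamini-Hochberg adjustment over 11408 genes. The SE was the absolute log2 fold change divided by the square root of the F statistic of this test. Intervals of 95% used that SE and a t quantile, so both restate the unadjusted p-value of the test. The code was tested on simulated data. Chi-square per degree of freedom between replicates was 5.80 to 175, so none were duplicates. The labels number the mice but do not say whether cultures were separate, so p-values measure the spread between these samples. The spread between replicates was larger than counting error alone gives (biological coefficient of variation 13.0%). A level of 3 counts was 0.0720 to 0.844 CPM. Plots used matplotlib 3.10.9 under Python 3.11.15.

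The members and lists were chosen with earlier results of these data known. Named were all 10 members, Ahrr, up to 3 called genes per direction and list, if averaging 50 counts or more, and the 3 genes most like the members with the largest rise and fall. Acaa1a, Tlr3, Ly96, the Irak genes, Traf6 and marker genes were named outside that rule. Alternatives were RLE and upper-quartile scaling, no filter or a minimum mean of 50 counts, DESeq2 1.42.0, limma 3.58.1 (voom, and log2 of the deposited signal plus 1), the replicate block, GC offsets (lowess span 0.3) with and without it, thinning to 3556106 counts and leaving out each library. One monocyte marker is not reported here.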

Additional observations from a re-analysis of the deposited data

How the results depend on the processing

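The 17 alternatives gave 812 values, of which 667 left the sign and the call as they were, or moved by less than the set limits; for the 10 genes and Ahrr it was 164 of 186. The cause of the other changes was not tested. Cd14, Tlr4 and Tlr1 kept their calls under all 17 alternatives, and Tlr2, Tlr6, Tlr7 and Tlr13 passed under none. Myd88 lost its call with limma on the deposited signal (log2 fold change 0.42), a minimum mean of 50 counts (0.45), the replicate block (0.43), thinning (0.38) and upper-quartile scaling (0.43), and gave 0.36 to 0.58 when a library was left out. Tlr8 gained a call with GC offsets (-0.65), GC offsets with the replicate block (-0.68) and no filter (-0.49), and gave -0.79 to -0.30 when a library was left out. Tlr9 gave -1.43 to -0.81 and Ahrr -1.69 to -1.0 in those fits, and thinning gave -1.35 for Ahrr, without a call. Tlr7 turned to -0.021 with GC offsets, with and without the replicate block, and Tlr13 to -0.077 without Ahrr-deficient replicate 1, with up to 0.22 without another library. Ahrr gave no value with a minimum mean of 50 counts, since the filter removed it.

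Over all genes 1097 were higher and 1135 lower. The replicate block gave 666 and 724, GC offsets with the replicate block 634 and 642, and thinning 589 and 577. Leaving out a library gave 327 to 1889 higher and 367 to 1968 lower genes. The pathway lists had 2 to 8 higher and 5 to 14 lower genes in these fits, against 5 and 10. Deviations of same-numbered libraries correlated at -0.17, 0.07 and 0.13, and only for 1 of the 3 numbers was the best match its own, so the numbers were not taken as pairs; the block ended no other call among the 10 genes. Of 268 values of other named genes, 225 kept their side and 43 lost the call. The log2 difference was 0.75 to 1.31 for Tlr1/Tlr6, -0.79 to -0.43 for Tlr8/Tlr7 and 2.57 to 3.05 for Tlr4/Cd14 when a library was left out, an alternative chosen after seeing the data. Among the 10 genes the lowest counts in a library were 15 for Tlr1 and 20 for Tlr9.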
